A study of Arabidopsis thaliana with 24 samples.

Results

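The genes described here are 126 Arabidopsis root transcripts that L-kynurenine (Kyn) lowered, that brassinolide (BL) alone left near the mock level, and that stayed low when BL was given together with Kyn. They were chosen by their values at 24 h and 48 h. For each gene the log2(normalized count + 1) of a treatment minus that of mock was taken within each time from the means of 2 libraries, and averaged over 24 h and 48 h. Members had a BL+Kyn effect of at most -1.0, a Kyn effect of at most -1.0, a BL effect between -0.4 and 0.4, and a mean of at least 20 normalized counts over all 24 libraries. Of the 40246 features listed, 26800 had reads and 16095 had a mean of at least 20. A Kyn effect of at most -1.0 was found for 262 of those, and 126 met every limit. All 126 also passed the lower limit on the mean (5 normalized counts) used for testing. The 24 h and 48 h effects of the members are therefore given as a description, and tests were made only on the 12 h differences, which the rule did not use. The error of these tests was estimated over all 24 libraries, the 24 h and 48 h libraries included.

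The libraries came from roots of Col-0 wild type seedlings that were 3 days old when moved to treatment medium. The groups were BL+Kyn (0.8 nM BL with 4 µM Kyn), Kyn (4 µM), BL (0.8 nM) and mock, each harvested after 12, 24 and 48 h with 2 libraries, which the series calls biological replicates. Roots were cut roughly 0.2 to 0.5 cm from the tip, so the tissue mixes the cell types of the young root, and 2 ng of RNA entered a CEL-Seq2 preparation, which counts the 3′ ends of transcripts, with 3 barcoded primers per sample. No mutant or transgene was used in any group.

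Kyn inhibits TAA1 and its relatives, the aminotransferases that turn tryptophan into indole-3-pyruvate on the main route of auxin synthesis, and BL is the most active natural brassinosteroid. Auxin promotes the outgrowth and elongation of root hairs, which are tip-growing extensions of epidermal cells, and Aux/IAA proteins are repressors whose own genes are rapidly induced by auxin. The growing hair builds its wall from extensins, arabinogalactan proteins and xyloglucan, and basic helix-loop-helix regulators of the RSL class switch on many of these wall genes through the root hair element (RHE) in their promoters.

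Many of the members are known root hair genes, and their promoters are shown because an RHE match was more frequent among them than among promoters at large. RefSeq gene starts gave a window of 300 bases upstream for the 120 protein-coding members (TAIR10.1, whose nuclear chromosomes have the lengths of TAIR10). Both strands were searched. An RHE match with either spacer lay in 12 of 120 member promoters (10%), against 155 of 15670 promoters of protein-coding genes with a mean of at least 20 (0.989%). Among the 21 members in a list of root hair growth and wall genes it lay in 7 (33.3%), and among the other 99 members in 5 (5.05%). The list was drawn from known root hair genes, and the RHE is a known element of such genes. Its share is therefore no independent support, and the 10% over all members includes it. The GCACGT core, which overlaps the RHE, lay in 24 member promoters (20%), against 676 of all (4.31%). The windows below belong to PRP3 (chr3:23182422-23182721), PRP1 (chr1:20504601-20504900), LRX1 (chr1:4069692-4069991), RHS18 (chr5:7426010-7426309), G3Pp2 (chr4:12920442-12920741) and MRH6 (chr2:1131820-1132119), all on the plus strand, and capitals mark the RHE match.
PRP3: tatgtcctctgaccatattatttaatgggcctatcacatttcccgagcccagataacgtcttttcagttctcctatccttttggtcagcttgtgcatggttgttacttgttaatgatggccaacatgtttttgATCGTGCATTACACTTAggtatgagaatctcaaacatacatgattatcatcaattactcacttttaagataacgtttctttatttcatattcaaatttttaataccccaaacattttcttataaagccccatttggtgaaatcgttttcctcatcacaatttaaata
PRP1: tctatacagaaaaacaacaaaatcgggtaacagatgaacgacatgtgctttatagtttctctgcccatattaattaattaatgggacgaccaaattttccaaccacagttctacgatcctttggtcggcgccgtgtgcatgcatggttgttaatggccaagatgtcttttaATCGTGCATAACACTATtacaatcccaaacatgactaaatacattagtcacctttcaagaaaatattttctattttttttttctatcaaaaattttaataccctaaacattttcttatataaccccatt
LRX1: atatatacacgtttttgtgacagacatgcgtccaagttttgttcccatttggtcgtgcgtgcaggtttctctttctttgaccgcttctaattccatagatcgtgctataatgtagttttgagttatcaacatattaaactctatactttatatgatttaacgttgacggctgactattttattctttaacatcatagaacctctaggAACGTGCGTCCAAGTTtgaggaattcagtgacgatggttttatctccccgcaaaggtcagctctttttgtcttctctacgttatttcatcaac
RHS18: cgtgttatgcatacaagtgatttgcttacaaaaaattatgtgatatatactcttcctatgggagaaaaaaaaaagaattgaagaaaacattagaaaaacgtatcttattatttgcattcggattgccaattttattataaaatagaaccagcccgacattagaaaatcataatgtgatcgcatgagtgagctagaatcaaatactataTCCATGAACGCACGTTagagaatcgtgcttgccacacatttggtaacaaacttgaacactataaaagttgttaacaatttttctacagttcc
G3Pp2: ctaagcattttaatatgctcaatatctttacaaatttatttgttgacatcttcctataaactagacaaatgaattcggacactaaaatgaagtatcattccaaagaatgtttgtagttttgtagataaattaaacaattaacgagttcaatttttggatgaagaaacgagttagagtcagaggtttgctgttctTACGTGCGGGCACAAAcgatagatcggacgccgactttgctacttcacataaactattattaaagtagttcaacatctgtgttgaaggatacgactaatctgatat
MRH6: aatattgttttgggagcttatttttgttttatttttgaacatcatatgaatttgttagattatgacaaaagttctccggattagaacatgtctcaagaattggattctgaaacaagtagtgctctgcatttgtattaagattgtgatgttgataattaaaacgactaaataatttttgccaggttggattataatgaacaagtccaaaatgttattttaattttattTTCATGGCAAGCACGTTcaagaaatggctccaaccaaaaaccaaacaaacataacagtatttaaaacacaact
The match begins 167 bases before the gene start in PRP3 and 129 in PRP1, and 92 to 106 before it in LRX1, RHS18 and G3Pp2. In MRH6 it begins 73 bases before the start. PRP3, PRP1, LRX1 and G3Pp2 carry it on the minus strand and RHS18 and MRH6 on the plus strand.

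The other motifs searched were those linked to auxin response factors and to basic helix-loop-helix and bZIP factors. TGTCTC lay in 24 of 120 member promoters (20%), against 1969 of 15670 (12.6%), TGTCGG in 5 (4.17%), against 866 (5.53%), and CACGTG in 7 (5.83%), against 1251 (7.98%). IAA19 (chr3:5263701-5264000, plus strand) is shown as an auxin-response member with 3 matches to TGTCTC, in capitals.
IAA19: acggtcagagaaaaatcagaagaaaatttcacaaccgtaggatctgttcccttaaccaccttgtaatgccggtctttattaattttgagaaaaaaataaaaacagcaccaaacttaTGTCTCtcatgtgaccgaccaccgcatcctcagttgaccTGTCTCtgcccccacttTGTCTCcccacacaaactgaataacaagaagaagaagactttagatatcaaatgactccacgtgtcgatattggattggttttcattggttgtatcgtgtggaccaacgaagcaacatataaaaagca
A match is a run of letters in the window and was not tested for function.

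Sequencing depth, in units of 1e6 reads, was 6.32 to 31.37 per library, with a median of 9.73. Both libraries that stood apart were of the 12 h harvest: summed normalized counts of 12 photosynthesis genes were 116016 in Kyn 12 h replicate 2 and 96620 in BL 12 h replicate 2, against 1766 to 7784 in the other 22 libraries. The members' median log2 difference from mock was -1.86 in the Kyn library with the green-tissue transcripts and -2.06 in the other Kyn library at 12 h. The BL library with them stood at -0.16 and the other BL library at 0.34.

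As a group the members made up 0.198 to 0.426% of all normalized counts in the 6 BL+Kyn libraries and 0.358 to 0.728% in the 6 Kyn libraries. They made up 1.68 to 3.07% in the 6 BL libraries and 1.64 to 2.49% in the 6 mock libraries. The BL+Kyn and the Kyn libraries thus lay below every BL and mock library, while the BL and mock ranges overlapped. At 24 h and 48 h this follows in large part from the rule. At 12 h alone the shares were 0.361 and 0.426% in BL+Kyn and 0.492 and 0.533% in Kyn. They were 3.07 and 2.22% in BL and 2.49 and 2.44% in mock libraries. The median member stood at -2.29, -2.78 and -2.97 in BL+Kyn against mock at 12, 24 and 48 h on the log2 scale, at -2.01, -1.75 and -1.70 in Kyn, and at 0.08, 0.30 and -0.09 in BL. In bulk roots, fewer cells of a type and less RNA per cell cannot be told apart.

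**Figure D1:**
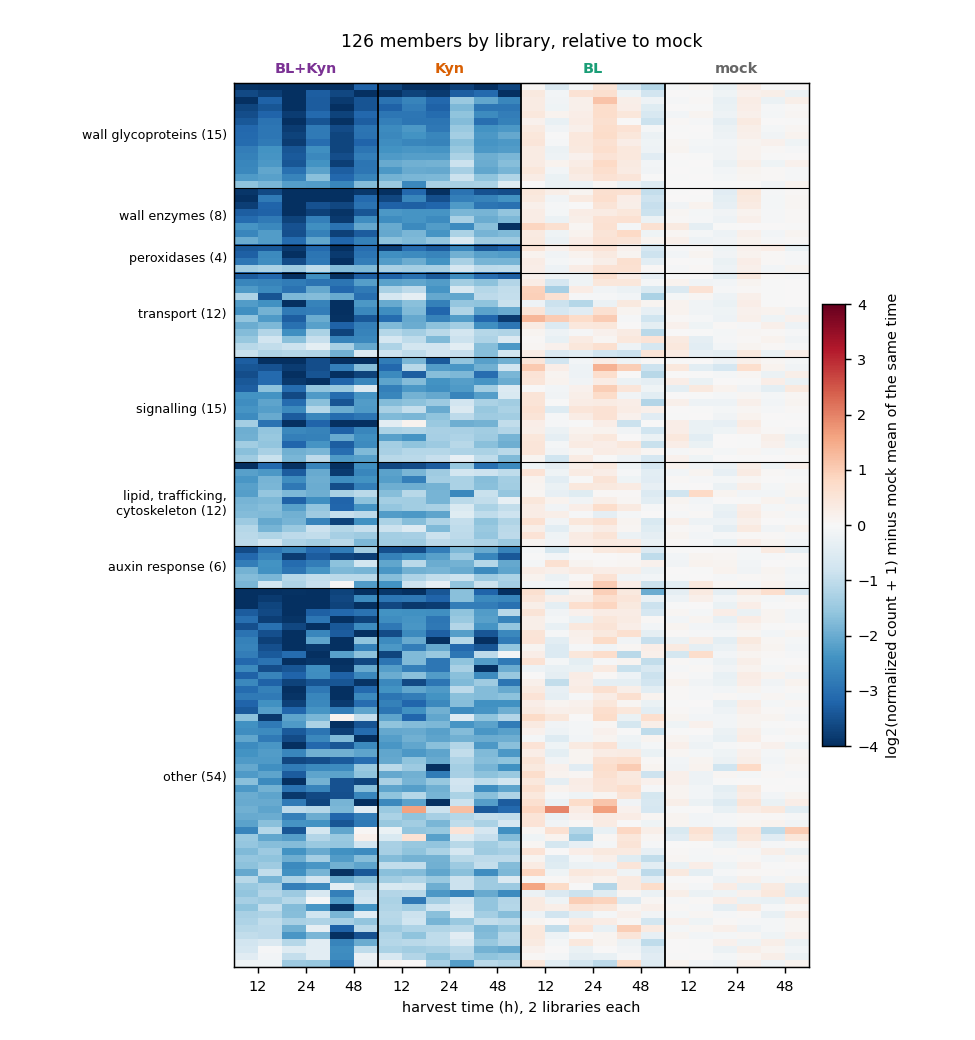
Log2 difference of each of the 126 members (rows, grouped by role) from the mean of mock at the same time, in each of the 24 libraries (columns; BL+Kyn, Kyn, BL and mock, each at 12, 24 and 48 h). The BL+Kyn and Kyn columns lie below mock for nearly all rows at all 3 times, and the BL columns near it; at 24 h and 48 h this follows from the rule.

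The 12 h libraries showed the same genes already low. In BL+Kyn against mock, 103 of 126 members were called lower (81.7%; 2.47% of the 18948 genes tested were), with a median log2 change of -2.29 beside -0.01 over all genes, and none was called higher (2.55% of all genes were). In Kyn against mock, 79 were called lower (62.7%; background 1.03%), with a median of -2.01 beside 0.01 over all genes, and none was called higher (0.253%). A gene is called here when its limma adjusted p lies under 0.05. Of the members 78 were called lower in both contrasts, 25 only in BL+Kyn, 1 only in Kyn (AT1G14960) and 22 in neither, and because both contrasts use the same mock libraries these counts are not independent. Both BL+Kyn libraries lay below both mock libraries for 126 of 126 members (26.1% of all genes), and both Kyn libraries did so for 121 (20.8%). With the error estimated from the 12 h libraries alone, 105 members were called lower in BL+Kyn and 90 in Kyn. Without mock 12 h replicate 1 the Kyn count was 51, without Kyn 12 h replicate 2 and BL 12 h replicate 2 it was 58, and 49 of the 79 calls held in every alternative run. For BL+Kyn the lowest count was 74, without mock 12 h replicate 2, and 68 of the 103 calls held in every alternative.

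In BL against mock at 12 h no member was called (0.095% of all genes were), 2 had an unadjusted p under 0.05, and edgeR and DESeq2 also called 0. The members' median was 0.08, and both BL libraries lay below both mock libraries for 6 members (17.4% of all genes). In BL+Kyn against BL 103 members were called lower (1.76% of all genes), with a median of -2.49. The size of the 12 h differences ran with that of the later times. Across the 126 members the 12 h difference and the mean of the 24 h and 48 h differences had a Pearson r of 0.79 (Spearman rho 0.80) in BL+Kyn and 0.75 (rho 0.74) in Kyn. The times share no library, but all libraries share the scaling and the genes' levels, and genes are not independent replicates.

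**Figure D2:**
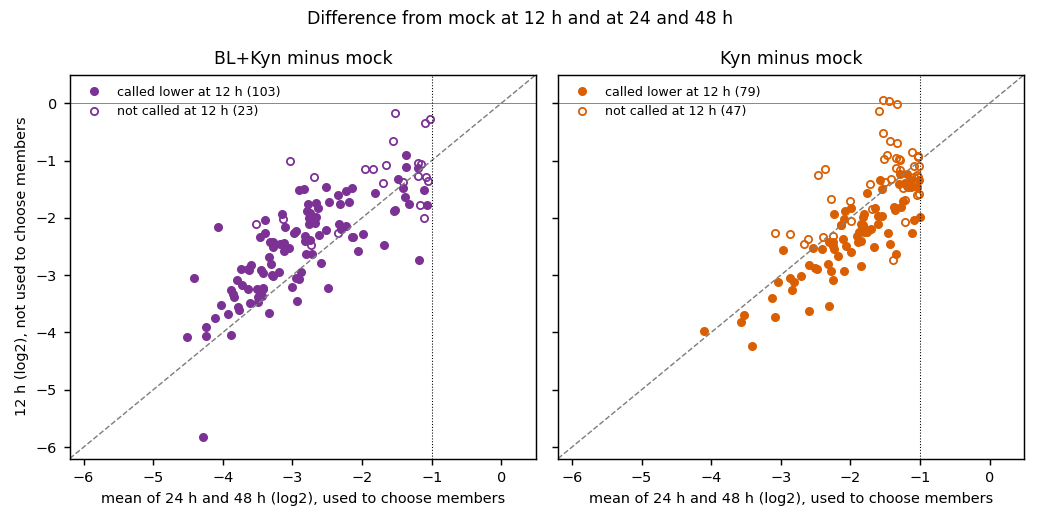
Each point is a member, with its mean effect at 24 h and 48 h (x axis, used by the rule) and its difference at 12 h (y axis, not used by the rule), both as log2 of treatment minus mock, for BL+Kyn (left) and Kyn (right). Filled points are the 103 and 79 members called lower at 12 h and open points the other 23 and 47; members with a larger fall at 12 h tend to have a larger one later, with r of 0.79 and 0.75.

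The structural glycoproteins of the wall fell together. All 15 were called lower at 12 h in BL+Kyn (median log2 change -3.00) and all 15 in Kyn (median -2.5), and 14 or 15 were in every alternative run. Their summed normalized count was 14029 to 35993 in BL+Kyn libraries and 28810 to 65069 in Kyn libraries, against 158152 to 306028 in BL and 152799 to 240464 in mock libraries. The ranges of BL+Kyn and Kyn overlapped, and neither reached the BL or mock range. For the 24 h and 48 h libraries this separation follows in large part from the rule.

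Values below are normalized counts of replicate 1 and replicate 2, with the log2 change, its SE and limma's adjusted p beside them. EXT10, an extensin-like protein (chromosome 5, 2039859 to 2041928), had at 12 h 8712 and 10466 in BL+Kyn roots, 13362 and 15682 in Kyn roots and 98689 and 69761 in BL roots, against 76837 and 77429 in mock roots. At 24 h it had 4189 and 8173 in BL+Kyn roots, 7948 and 20784 in Kyn roots and 67248 and 94048 in BL roots, against 48942 and 68268 in mock roots. At 48 h it had 4587 and 7368 in BL+Kyn roots, 10656 and 11196 in Kyn roots and 82304 and 52067 in BL roots, against 52897 and 57838 in mock roots. At all 3 times both BL+Kyn libraries and both Kyn libraries were below every BL and mock library. At 12 h the change was -3.01 (SE 0.36, adjusted p = 4.61e-05) in BL+Kyn and -2.41 (SE 0.36, adjusted p = 0.000971) in Kyn. Its neighbour AT5G06630, of the same family, lies 1742 bases away and was also a member.

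FLA6, a fasciclin-like arabinogalactan protein (chromosome 2, 8840663 to 8841406), was low in both treatments with Kyn. At 12 h it had 35.8 and 32.04 in BL+Kyn roots, 28.1 and 33.5 in Kyn roots and 587 and 412 in BL roots, against 456 and 438 in mock roots, and at 48 h 25.9 and 15.3 in BL+Kyn roots, 37.6 and 19.4 in Kyn roots and 298 and 194 in BL roots, against 394 and 282 in mock roots. The BL+Kyn and Kyn libraries overlapped at both times, and all were below every BL and mock library. The 12 h change was -3.68 (SE 0.36, adjusted p = 6.17e-06) in BL+Kyn and -3.82 (SE 0.36, adjusted p = 2.56e-05) in Kyn. The BL+Kyn minus Kyn difference was 0.14 (SE 0.36, adjusted p = 0.889).

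PRP3 and PRP1, proline-rich wall proteins of root hairs whose promoters are printed above, moved in the same way. PRP3 (chromosome 3, 23182722 to 23183994) had at 12 h 4652 and 6065 in BL+Kyn roots, 6040.2 and 6333 in Kyn roots and 40217 and 26813 in BL roots, against 34087 and 29691 in mock roots. At 48 h it had 1914 and 3197 in BL+Kyn roots, 4923 and 5207 in Kyn roots and 32587 and 21034 in BL roots, against 25164 and 23750.5 in mock roots. At 48 h the BL+Kyn libraries were below both Kyn libraries. The 12 h changes of PRP3 were -2.58 (SE 0.31, adjusted p = 4.61e-05) in BL+Kyn and -2.36 (SE 0.31, adjusted p = 0.000284) in Kyn. For PRP1 they were -3.17 (SE 0.35, adjusted p = 2.32e-05) and -2.83 (SE 0.35, adjusted p = 0.00021) in the same order of groups.

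LRX1, a leucine-rich repeat extensin needed for an intact root hair wall, had log2 changes at 12 h of -2.21 in BL+Kyn and -1.86 in Kyn. At 48 h LRX1 had 567 and 799 in BL+Kyn roots, 1645 and 2158 in Kyn roots and 6918 and 4899 in BL roots, against 5145 and 4829 in mock roots. The BL+Kyn libraries at 48 h lay below the Kyn libraries, and these below all others. AT5G26080, annotated as a proline-rich family protein, had 61.3 and 51.3 in BL+Kyn roots, 72.4 and 49.5 in Kyn roots and 1016 and 647 in BL roots, against 897 and 1022 in mock roots at 12 h, and the change was -4.07 (SE 0.46, adjusted p = 2.42e-05) in BL+Kyn and -3.98 (SE 0.46, adjusted p = 0.00011) in Kyn. The extensin-like genes EXT6, EXT13, AT4G08410, AT4G08400 and AT5G06630, the arabinogalactan protein AGP3 and the hydroxyproline-rich AT5G19800 had 12 h changes between -3.62 and -2.32 in BL+Kyn and between -3.01 and -1.97 in Kyn. Extensin genes share repeats, and reads can be split between them. The last 500 genomic bases of each gene, any introns included, were read as 50-base windows and searched on both strands of the genome. For EXT6 37.3% of these windows also occurred elsewhere in the genome, for AT4G08410 and AT4G08400 13.1% and for AT5G06630 12.4%. Of the 125 members matched to the reference, 112 had no such window.

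Enzymes that cut and rejoin wall polysaccharides fell with them. Of 8 members 7 were called lower at 12 h in BL+Kyn (median -3.11) and 7 in Kyn (median -2.37; 5 without mock 12 h replicate 1). XTH26, a xyloglucan endotransglucosylase/hydrolase (chromosome 4, 14244295 to 14245957), had 33.1 and 41.02 in BL+Kyn roots, 26.2 and 56.2 in Kyn roots and 689 and 593 in BL roots, against 501 and 513 in mock roots at 12 h. Its BL+Kyn and Kyn libraries overlapped, and all were below every BL and mock library. The change was -3.75 (SE 0.44, adjusted p = 3.77e-05) in BL+Kyn and -3.69 (SE 0.44, adjusted p = 0.00016) in Kyn. XTH12 and XTH13, both on chromosome 5, had 12 h changes of -3.49 and -3.53 in BL+Kyn and of -3.25 and -3.12 in Kyn. XTH14 had -2.42 (adjusted p = 0.000187, limma) in BL+Kyn and -1.94 (adjusted p = 0.00325) in Kyn, and without mock 12 h replicate 1 the adjusted p of the Kyn contrast was 0.0603.

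RHS14, a pectate lyase-like protein named for its root hair expression, was lower in BL+Kyn than in Kyn at each time. It had at 12 h 48.2 and 51.3 in BL+Kyn roots, 98.1 and 95.03 in Kyn roots and 597 and 459.5 in BL roots, against 514 and 463 in mock roots. At 24 h it had 16.9 and 28.3 in BL+Kyn roots, 74.2 and 109.6 in Kyn roots and 473 and 488 in BL roots, against 352 and 428 in mock roots, and at 48 h 21.6 and 30.5 in BL+Kyn roots, 91.7 and 113 in Kyn roots and 465 and 187 in BL roots, against 327 and 351 in mock roots. At all 3 times the order was BL+Kyn, then Kyn, then BL and mock, with no overlap between the BL+Kyn and Kyn libraries. At 12 h the change was -3.27 (SE 0.32, adjusted p = 6.17e-06) in BL+Kyn and -2.32 (SE 0.32, adjusted p = 0.000442) in Kyn, and BL+Kyn against Kyn gave -0.94 (SE 0.32, adjusted p = 0.173).

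The 4 class III peroxidases, which cross-link wall proteins and shape reactive oxygen in the wall, were all called lower at 12 h in BL+Kyn (median -2.80) and in Kyn (median -2.30). Without mock 12 h replicate 1 or replicate 2 the Kyn call of AT3G49960 ended (adjusted p up to 0.0773), leaving 3. AT1G34510 (chromosome 1, 12615733 to 12617032) had 154 and 154 in BL+Kyn roots, 119 and 194 in Kyn roots and 2304 and 1793 in BL roots, against 1537 and 1675 in mock roots at 12 h. The BL+Kyn and Kyn libraries overlapped at about the same level. The change was -3.38 (SE 0.33, adjusted p = 6.17e-06) in BL+Kyn and -3.39 (SE 0.33, adjusted p = 2.82e-05) in Kyn. RHS18, whose promoter is printed above, had changes of -2.91 in BL+Kyn and -2.49 in Kyn.

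**Figure D3:**
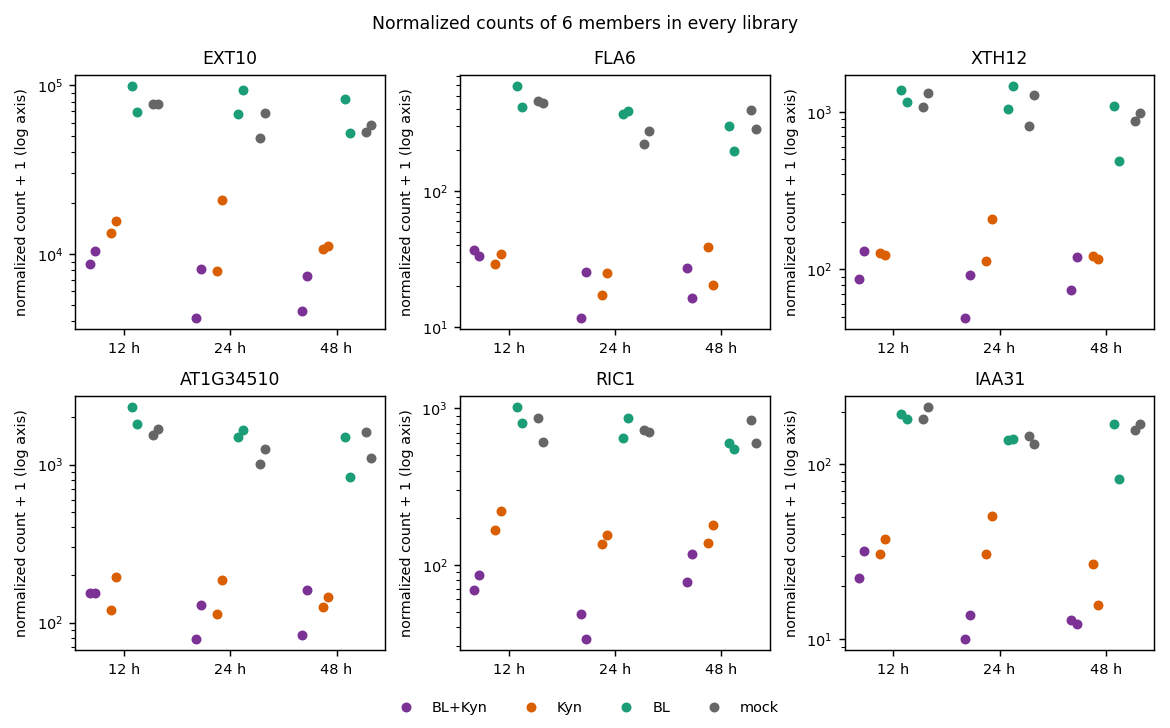
Normalized count + 1 (log axis) of EXT10, FLA6, XTH12, AT1G34510, RIC1 and IAA31 in each library at 12, 24 and 48 h, with BL+Kyn, Kyn, BL and mock from left to right within a time. Each point is a library; the BL+Kyn and Kyn points lie below all BL and mock points of the same time, and for RIC1 the BL+Kyn points also lie below the Kyn points.

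Transport genes were a smaller group with mixed calls. Of 12 members 9 were called lower at 12 h in BL+Kyn (median -2.05; 3 without BL+Kyn 12 h replicate 2 or without mock 12 h replicate 2) and 4 in Kyn (median -1.55; 3 to 7 over the alternatives). G3Pp2, a glycerol-3-phosphate permease also named RHS15, had 156 and 177 in BL+Kyn roots, 165 and 197 in Kyn roots and 1755 and 1404 in BL roots, against 1566 and 1574 in mock roots at 12 h. Its change was -3.23 (SE 0.39, adjusted p = 4.95e-05) in BL+Kyn and -3.12 (SE 0.39, adjusted p = 0.000222) in Kyn. HA7, a plasma membrane proton pump that energises uptake, had -2.63 in BL+Kyn and -2.11 in Kyn, and both calls held in every alternative.

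Genes of iron and sulphate uptake were among them. IRT2, an iron transporter of the root epidermis, had 158 and 183 in BL+Kyn roots, 185 and 161 in Kyn roots and 804 and 430.2 in BL roots, against 713 and 563 in mock roots at 12 h and 31.3 and 44.4 in BL+Kyn roots, 54.1 and 40.5 in Kyn roots and 307 and 232 in BL roots, against 352 and 261 in mock roots at 48 h. Its BL+Kyn and Kyn libraries overlapped at both times, below BL and mock. Its change at 12 h was -1.89 (SE 0.29, adjusted p = 0.000462) in BL+Kyn and -1.87 (SE 0.29, adjusted p = 0.00119) in Kyn. FRO4, a ferric chelate reductase, had a 12 h change of -2.34 (limma adjusted p = 0.0215) in BL+Kyn, a call that ended without any of the BL+Kyn or mock libraries (adjusted p up to 0.159), and of -1.84 (adjusted p = 0.167) in Kyn. SULTR1;1, the high-affinity sulphate transporter, had 15.2 and 8.97 in BL+Kyn roots, 4.76 and 10.7 in Kyn roots and 119 and 96.5 in BL roots, against 48.8 and 45.8 in mock roots at 12 h. The BL libraries were above both mock libraries, a change of 1.16 (SE 0.46, limma adjusted p = 0.711) that was not called. Its BL+Kyn change was -1.93 (adjusted p = 0.0198; up to 0.227 without either mock library or BL+Kyn replicate 2), and its Kyn change -2.56 (adjusted p = 0.00512; up to 0.0700 without either mock library or Kyn replicate 1). MOT1, a molybdate transporter, was a member at the edge of the BL limit, with 12 h changes of -1.05 in BL+Kyn and -0.92 in Kyn, neither called (adjusted p = 0.28 and 0.584). AT1G18420, of the aluminum-activated malate transporter family, was also not called, with -1.14 in BL+Kyn (adjusted p = 0.0949) and -0.84 in Kyn (adjusted p = 0.462). AT1G48640, of the amino acid transporter family, had -2.34 in BL+Kyn (adjusted p = 0.0128, not called without either mock library or BL+Kyn replicate 2, up to 0.271 over the alternatives) and -0.51 in Kyn (adjusted p = 0.825).

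Kinases and other signalling proteins included the member called in BL+Kyn against Kyn. Of 15 members 14 were called lower at 12 h in BL+Kyn (median -2.28; 9 without mock 12 h replicate 1) and 9 in Kyn (median -1.81; 3 without Kyn 12 h replicate 2 and BL 12 h replicate 2). RIC1, a partner of ROP GTPases that organises microtubules (chromosome 2, 14174590 to 14175561), had 68.2 and 84.6 in BL+Kyn roots, 167 and 218 in Kyn roots and 1017 and 802 in BL roots, against 874 and 610.0 in mock roots at 12 h. At 24 h it had 47.8 and 32.6 in BL+Kyn roots, 134 and 154 in Kyn roots and 644 and 871 in BL roots, against 722 and 701 in mock roots, and at 48 h 76.7 and 116 in BL+Kyn roots, 136 and 179.7 in Kyn roots and 599 and 549 in BL roots, against 845 and 596 in mock roots. At all 3 times both BL+Kyn libraries were below both Kyn libraries, and these were below all BL and mock libraries. The 12 h change was -3.25 (SE 0.25, adjusted p = 6.24e-07) in BL+Kyn and -1.93 (SE 0.25, adjusted p = 0.000279) in Kyn.

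RIC1 was the single member called in BL+Kyn against Kyn at 12 h, with -1.32 (SE 0.25, adjusted p = 0.0186). Of all genes 0.301% were called lower there. That call ended without Kyn replicate 2, without BL+Kyn replicate 1 and without BL+Kyn replicate 2 (adjusted p up to 0.382 over the alternatives), while the calls against mock held in all of them. Kyn replicate 2 at 12 h was the library with the green-tissue transcripts, whose part in the result was not tested. MRH6, a root hair morphogenesis gene with an RHE match, had -2.27 in BL+Kyn and -1.81 in Kyn. RHS6, a receptor-like kinase, had 9.65 and 2.56 in BL+Kyn roots, 19.5 and 29.4 in Kyn roots and 31.6 and 25.7 in BL roots, against 32.1 and 21.6 in mock roots at 12 h. At 48 h it had 1.08 and 1.39 in BL+Kyn roots, 10.6 and 21.04 in Kyn roots and 22.8 and 41.5 in BL roots, against 41.8 and 43.00 in mock roots. Both BL+Kyn libraries were below both Kyn libraries at 12, 24 and 48 h. Its 12 h change was -2.15 in BL+Kyn (SE 0.55, adjusted p = 0.0277, not called without either mock library or BL+Kyn replicate 2, up to 0.395 over the alternatives) and -0.13 in Kyn (adjusted p = 0.965). BL+Kyn against Kyn was -2.02 (SE 0.55, adjusted p = 0.0959). AT1G05990, an EF-hand calcium-binding protein also named RHS1, had 9.65 and 2.56 in BL+Kyn roots, 13.8 and 28.1 in Kyn roots and 144 and 59.9 in BL roots, against 103 and 103 in mock roots at 12 h, with -4.08 (SE 0.60, adjusted p = 0.000342) in BL+Kyn and -2.32 (SE 0.60, adjusted p = 0.0711) in Kyn, which was not called.

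Members of lipid signalling, membrane trafficking and the cytoskeleton include known parts of hair tip growth. All 12 were called lower at 12 h in BL+Kyn (median -1.79; 6 without mock 12 h replicate 2) and 8 in Kyn (median -1.48; 5 without mock 12 h replicate 2). COW1, a phosphatidylinositol transfer protein needed for hair elongation, had 197 and 247 in BL+Kyn roots, 227 and 229 in Kyn roots and 968 and 739 in BL roots, against 871 and 909 in mock roots at 12 h and 53.99 and 95.7 in BL+Kyn roots, 199.8 and 243 in Kyn roots and 802 and 509 in BL roots, against 603 and 671 in mock roots at 48 h. At 12 h its BL+Kyn and Kyn libraries overlapped, and at 48 h both BL+Kyn libraries were below both Kyn libraries. The 12 h change was -2.01 (SE 0.30, adjusted p = 0.000339) in BL+Kyn and -1.96 (SE 0.30, adjusted p = 0.000999) in Kyn. BST1, a root hair gene of the phosphatase-like DNase I fold, had -1.84 in BL+Kyn (limma adjusted p = 0.00734; up to 0.0713 without mock replicate 1 or either BL+Kyn library) and -1.38 in Kyn (adjusted p = 0.101). PLIM2b, a LIM protein that bundles actin, had 345 and 428 in BL+Kyn roots, 274 and 269 in Kyn roots and 766 and 644 in BL roots, against 747 and 689 in mock roots at 12 h. Both its BL+Kyn libraries were above both Kyn libraries there. Its changes were -0.90 in BL+Kyn (adjusted p = 0.0215; up to 0.159 without any of the mock or BL+Kyn libraries) and -1.40 in Kyn (adjusted p = 0.00139).

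Among the 6 auxin response members 5 were called lower at 12 h in BL+Kyn (median -2.36) and 5 in Kyn (median -1.86). IAA31, an Aux/IAA repressor (chromosome 3, 6020025 to 6021142), had 21.4 and 30.8 in BL+Kyn roots, 29.5 and 36.1 in Kyn roots and 194 and 182 in BL roots, against 181 and 212 in mock roots at 12 h. At 48 h it had 11.9 and 11.1 in BL+Kyn roots, 25.9 and 14.6 in Kyn roots and 170.0 and 81.05 in BL roots, against 157 and 171 in mock roots. Both BL+Kyn and both Kyn libraries were below every BL and mock library at both times. The change at 12 h was -2.89 (SE 0.34, adjusted p = 3.59e-05) in BL+Kyn and -2.55 (SE 0.34, adjusted p = 0.000286) in Kyn. IAA19, whose promoter is printed above, had 15.2 and 10.2 in BL+Kyn roots, 10.9 and 14.7 in Kyn roots and 72.5 and 67.2 in BL roots, against 59.1 and 58.5 in mock roots at 12 h and 20.5 and 19.4 in BL+Kyn roots, 11.8 and 16.2 in Kyn roots and 86.2 and 62.2 in BL roots, against 79.1 and 69.02 in mock roots at 48 h. The BL+Kyn and Kyn libraries overlapped at 12 h, and both BL+Kyn libraries were above both Kyn libraries at 48 h. The 12 h change was -2.15 (SE 0.30, adjusted p = 0.00024) in BL+Kyn and -2.13 (SE 0.30, adjusted p = 0.00065) in Kyn.

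IAA11 was the auxin response member with the smallest fall that was called in both, -1.78 in BL+Kyn and -1.47 in Kyn. IAA1 had -2.57 in BL+Kyn and -1.57 in Kyn (limma adjusted p = 0.0479), and the Kyn call ended in 8 of 17 alternatives (adjusted p up to 0.316), among them without Kyn replicate 1, either mock library or either BL+Kyn library. PBP1, a calcium-binding partner of the PINOID kinase, had 18.6 and 30.8 in BL+Kyn roots, 19.5 and 18.7 in Kyn roots and 221 and 143 in BL roots, against 229 and 238 in mock roots at 12 h, and its change was -3.23 (SE 0.45, adjusted p = 0.000215) in BL+Kyn and -3.54 (SE 0.45, adjusted p = 0.000229) in Kyn. DFL1, the GH3 enzyme GH3.6 that conjugates auxin to amino acids, was not called, with -1.28 in BL+Kyn and -1.60 in Kyn (adjusted p = 0.302 and 0.363).

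The other 54 members had no role assigned here or belonged to mixed families, and 5 of the 126 members are annotated as pseudogenes. Of the 54, 37 were called lower at 12 h in BL+Kyn (median -2.15; 24 without mock 12 h replicate 2) and 27 in Kyn (median -1.83; 12 without mock 12 h replicate 1). CYP94D1, a cytochrome P450 (chromosome 1, 12637054 to 12638550), had no read in either BL+Kyn library at 12 h, against 34 and 56 reads in the mock libraries. It was at least 42.8-fold lower in BL+Kyn, taking a floor of 3 reads over the group, which covers counting error only. In Kyn roots it had 2.86 and 1.34 normalized counts, against 43.7 and 71.2 in mock roots. The Kyn call (adjusted p = 0.0121) ended without either mock library and without Kyn replicate 2 (adjusted p up to 0.151). AT1G01453, a late embryogenesis abundant hydroxyproline-rich glycoprotein, had 22.7 and 32.04 in BL+Kyn roots, 32.9 and 28.1 in Kyn roots and 495 and 321 in BL roots, against 414 and 422 in mock roots at 12 h, a change of -3.90 (SE 0.37, adjusted p = 5.92e-06) in BL+Kyn and -3.74 (SE 0.37, adjusted p = 2.89e-05) in Kyn. AT4G25790, of the CAP superfamily of secreted proteins, had 16.5 and 23.1 in BL+Kyn roots, 45.2 and 45.5 in Kyn roots and 473 and 386 in BL roots, against 297 and 386 in mock roots at 12 h. Both its BL+Kyn libraries were below both Kyn libraries, with -4.05 (SE 0.39, adjusted p = 6.17e-06) in BL+Kyn and -2.87 (SE 0.39, adjusted p = 0.000442) in Kyn. AT1G75160, a DUF620 protein with an RHE match, had -3.24 in BL+Kyn (adjusted p = 0.000997) and -3.05 in Kyn (adjusted p = 0.00358; up to 0.0602 without mock replicate 1 or Kyn replicate 1). AT5G36270, a transcribed pseudogene, had -3.06 in BL+Kyn (adjusted p = 0.00613; up to 0.0552 without either mock library) and -2.34 in Kyn (adjusted p = 0.0801).

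AT5G55620, an uncharacterized gene, had 8.96 and 7.69 in BL+Kyn roots, 12.4 and 112 in Kyn roots and 66.5 and 143 in BL roots, against 35.99 and 36.9 in mock roots at 12 h. The highest Kyn and BL libraries were both replicate 2, the libraries with 116016 and 96620 summed counts of photosynthesis genes. Its change was not called at 12 h in BL+Kyn (-2.01, adjusted p = 0.173) or Kyn (0.06, adjusted p = 0.991), and whether its reads came with green tissue was not tested. AT1G14960, a Bet v 1-like protein of the polyketide cyclase family, had 904 and 1393 in BL+Kyn roots, 590.5 and 542 in Kyn roots and 1600.3 and 1446 in BL roots, against 1463 and 1407 in mock roots at 12 h. Its Kyn libraries were lowest and its BL+Kyn libraries lay between them and mock. The change was -0.35 (SE 0.30, adjusted p = 0.604) in BL+Kyn, not called, and -1.34 (SE 0.30, adjusted p = 0.0326) in Kyn, a call that ended without either mock library or either Kyn library (adjusted p up to 0.246 over the alternatives).

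In BL+Kyn against Kyn at 12 h, no member was called higher (0.375% of all genes were) and 1 was called lower (0.301%), 19 had an unadjusted p under 0.05, and the members' median was -0.28 beside -0.01 over all genes. BL+Kyn lay below Kyn for 98 of 126 members by the mean (49.7% of the 16095 genes with a mean of at least 20). Both BL+Kyn libraries lay below both Kyn libraries for 59 members (25.2% of all genes). No member was called in the interaction of BL and Kyn at 12 h, the part of the BL+Kyn change that adding the BL and Kyn changes leaves over (0.0% of all genes). There 9 had an unadjusted p under 0.05, edgeR called 0 and DESeq2 called 2, and the median was -0.35.

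At 24 h and 48 h the difference between BL+Kyn and Kyn was wider, in values the rule used in part. The median member was at -0.98 at 24 h and -0.92 at 48 h, beside 0.02 and 0.00 over the 16095 genes that met the limit on the mean. A difference of -1 or lower was found in 15, 61 and 58 members at 12, 24 and 48 h, against 2.37, 1.97 and 3.04% of all genes. BL+Kyn was below Kyn at all 3 times in 72 members and above it at all 3 times in 2. Of all genes 49.7, 48.2 and 49.8% were below 0 at 12, 24 and 48 h. Shares of all genes over several times together were not counted. At 24 h and 48 h together 42 members were at -1 or lower and none at 1 or higher at both times, and 6 were above 0 at both. The rule asked for a BL+Kyn effect of at most -1.0, which also capped the mean difference between BL+Kyn and Kyn over these 2 times. A member could rise only as far as its Kyn effect lay below -1.0, and genes that rose further were left out. The few rises among the members, and their distance from all genes, therefore follow in part from the rule.

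By role the medians of the later difference were below -1 at both times for signalling genes, wall enzymes and wall glycoproteins. Signalling members had medians of -0.46, -1.40 and -1.23 at 12, 24 and 48 h, wall enzymes -0.41, -1.26 and -1.24, and wall glycoproteins -0.35, -1.14 and -1.11. BL+Kyn was below Kyn for all 15 wall glycoproteins at 24 h and at 48 h. Peroxidases had medians of -0.21, -0.88 and -0.94, the lipid, trafficking and cytoskeleton members -0.15, -0.85 and -0.75, and transport members -0.17, -0.45 and -1.26. Auxin response members had -0.17, -0.67 and 0.26, and at 48 h BL+Kyn was below Kyn for 1 of 6 of them. No test was made of the difference between roles.

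Single genes spanned a wide range. The lowest were AT5G43230 (-0.53, -2.34 and -2.69 at 12, 24 and 48 h), RHS6 (-2.02, -2.11 and -2.84) and AT1G05990 (-1.75, -1.75 and -2.77). AT5G43230 carries an EEIG1/EHBP1 domain and had 0.56 and 12.8 in BL+Kyn roots, 17.1 and 29.4 in Kyn roots and 62.8 and 73.7 in BL roots, against 50.2 and 50.7 in mock roots at 24 h. Among the highest were AT2G25150, an acyltransferase of the HXXXD type (-0.23, 1.43 and 0.46), and AT1G14960 (0.99, 0.73 and 0.20). AT2G25150 had 38.2 and 68.03 in BL+Kyn roots, 20.9 and 16.1 in Kyn roots and 57.9 and 74.95 in BL roots, against 94.5 and 119 in mock roots at 24 h. Its BL+Kyn libraries were above both Kyn libraries there and below both mock libraries.

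**Figure D4:**
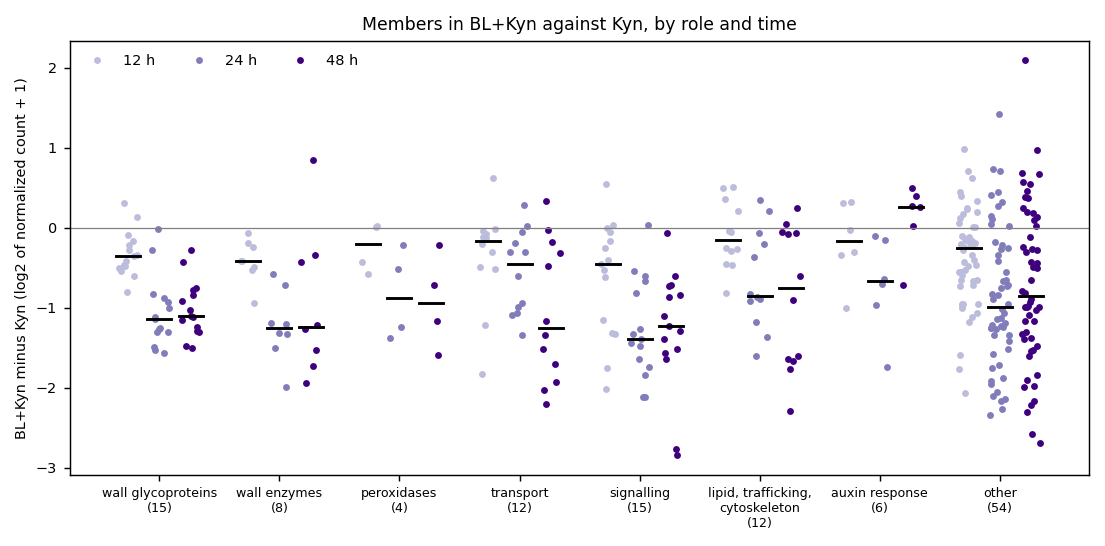
Log2 difference of BL+Kyn minus Kyn for each member (points) at 12, 24 and 48 h, by role, with the median as a bar. Most points lie below 0 at 24 h and 48 h, with role medians between -0.45 and -1.40, except for the auxin response members at 48 h (median 0.26). The rule limited how far a member could lie above 0 over 24 h and 48 h.

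The same pathways outside the members were read at 12 h from lists that were chosen with earlier results known. Over all 18948 genes tested, 2.47% were called lower and 2.55% higher in BL+Kyn, and 1.03% lower and 0.253% higher in Kyn. Of 45 root hair growth and wall genes 21 were members. Of the other 24, 8 were called lower in BL+Kyn (median -0.80; 6 to 9 over the alternatives) and 9 in Kyn (median -0.91; 3 to 10, the fewest without mock replicate 1 or Kyn replicate 1), and none was higher. The list was drawn from known root hair genes, and the members among them passed a limit at later times, so the 2 shares are not alike in kind. EXPA18, an expansin that loosens the wall of hair cells and lay just outside the BL limit, had -2.41 in BL+Kyn and -1.93 in Kyn. RHS19, a peroxidase, had -2.74 and RHS13 -2.32 in BL+Kyn, with -2.20 and -1.88 in Kyn, and these 6 calls held in every alternative. Of the list members not yet described, RHS17, RSH3 and RSH2 (RHS3 and RHS2 of the root hair specific series) had -2.46, -2.30 and -1.46 in BL+Kyn, each called and each lost without at least 1 mock or BL+Kyn library (adjusted p up to 0.232), and -2.05, -1.68 and -1.25 in Kyn, none called.

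Regulators of root hair formation were called in part, on calls that 1 library could end. Of 9 such genes 7 were tested and none was a member. In BL+Kyn 3 were called lower (2.47% of all genes were) and 1 higher (2.55%), and in Kyn 1 lower (1.03%). Lower in both was RSL4, the basic helix-loop-helix factor that drives hair elongation (-1.16 in BL+Kyn, adjusted p = 0.0482, and -1.37 in Kyn, adjusted p = 0.0464). RSL2 and RSL5 (listed as AT5G43175), of the same family, had -1.22 and -3.76 in BL+Kyn, and LRL1 was higher there at 0.66. Each of these calls, in BL+Kyn and in Kyn, ended without either mock library and without BL+Kyn replicate 2 (adjusted p up to 0.268 over the alternatives). The RSL4 call in Kyn also ended without either Kyn library, without BL+Kyn replicate 1, and without both libraries with the green-tissue transcripts (adjusted p up to 0.266). Summed over the list the regulators had 1294 to 2101 in BL+Kyn and 1755 to 2164 in Kyn libraries, against 2202 to 2884 in BL and 2099 to 2607 in mock libraries. The summed markers of non-hair epidermis and patterning had 871 to 1116 in BL+Kyn, 897 to 1161 in Kyn, 1016 to 1147 in BL and 873 to 1088 in mock libraries. The ranges of the non-hair sums overlapped between all groups. None of 10 genes was called in Kyn, and 1 was called higher in BL+Kyn, WER (listed as MYB66), a regulator of non-hair fate, at 0.83 (adjusted p = 0.0219; up to 0.141 without either mock or either BL+Kyn library). Their part in the members' fall was not tested.

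The Aux/IAA family at large was affected in part. Of 28 genes 24 were tested and 4 were members. Of the 20 others 3 were called lower and 1 higher in BL+Kyn (median -0.39) and 2 lower in Kyn (median -0.34). The shares over all genes were 2.47% lower and 2.55% higher in BL+Kyn, and 1.03% lower and 0.253% higher in Kyn. Among these non-members only the calls of IAA13 (-1.14 in BL+Kyn, -1.15 in Kyn) and IAA28 (0.78 in BL+Kyn) held in every alternative. Of 10 other tested genes of GH3 enzymes and lateral root markers, 1 was called lower and 1 higher in BL+Kyn, and 3 lower and 1 higher in Kyn. GH3.5, listed as WES1, an enzyme that joins auxin to amino acids, was lower in both treatments (-2.30 in BL+Kyn, -2.20 in Kyn), and these calls held in every alternative. LRP1, a lateral root primordium gene, was higher in both (1.66 in BL+Kyn, 1.57 in Kyn), but the BL+Kyn call ended without mock replicate 2 or BL+Kyn replicate 1 (adjusted p up to 0.0954) and the Kyn call without either mock or either Kyn library (adjusted p up to 0.217). GH3.1 and GATA23 were lower in Kyn (-2.24 and -3.23), calls that ended without either mock library and without 1 of the Kyn libraries (adjusted p up to 0.470 over the alternatives). The median log2 change at 12 h over the 11 tested genes of this list was -1.19 in BL+Kyn and -1.60 in Kyn. The summed level of the whole list over 12, 24 and 48 h went the other way. It was 1832 to 3032 normalized counts in BL+Kyn and 1416 to 2294 in Kyn libraries, against 1002 to 1447 in BL and 1008 to 1509 in mock libraries. A sum follows the most abundant genes of a list. Of 8 tested auxin synthesis genes 3 were called higher in BL+Kyn and 1 in Kyn, and none was lower. YUC8, a flavin monooxygenase that follows TAA1, was higher in both (1.80 in BL+Kyn, 1.15 in Kyn) in every alternative. YUC9 had 3.48 in BL+Kyn, also in every alternative, and YUC3 had 1.26, a call that ended without mock replicate 2 or BL+Kyn replicate 1 (adjusted p up to 0.123). The summed level of the list was 760 to 995 in BL+Kyn and 528 to 704 in Kyn libraries, against 469 to 603 in BL and 389 to 449 in mock libraries. None of 7 brassinosteroid synthesis and inactivation genes was called in either treatment (up to 1 lower in Kyn over the alternatives).

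Markers of other tissues gave few calls at 12 h, while some of their summed levels were higher in BL+Kyn. Endodermis (8 genes tested), xylem (9), phloem (3), root cap (4) and green tissue (12) had none in either treatment, although up to 8 of the green-tissue genes were called higher in Kyn and up to 2 endodermis genes higher in BL+Kyn in some alternatives. The endodermis sum was 23873 to 28536 in BL+Kyn and 16568 to 22714 in Kyn, against 15760 to 21862 in BL and 17732 to 19078 in mock libraries at 12 h. At 24 h it was 24265 to 25334 in BL+Kyn and 14088 to 15686 in Kyn, against 14822 to 16012 in BL and 12881 to 14373 in mock libraries. At 48 h it was 16601 to 29225 in BL+Kyn, against 14755 to 16518 in mock libraries. At each time both BL+Kyn libraries lay above both mock libraries. At 48 h the phloem sum was 742 to 811 in BL+Kyn and 384 to 458 in Kyn, against 447 to 578 in BL and 375 to 380 in mock libraries, and the xylem sum was 4148 to 4765 in BL+Kyn and 2096 to 2151 in Kyn, against 3208 to 3238 in BL and 2737 to 3662 in mock libraries. The root cap sum at 12 h was 332 to 345 in BL+Kyn and 282 to 304 in Kyn, against 266 to 274 in BL and 263 to 282 in mock libraries. The green-tissue sum at 48 h was 5725 to 7784 in BL+Kyn and 3082 to 3150 in Kyn, against 3067 to 4200 in BL and 2460 to 5562 in mock libraries. At other times not all of these sums stood above mock. At 12 h green tissue had 3409 to 3471 in BL+Kyn, against 4418 to 4716 in mock libraries, and phloem and xylem overlapped mock. At 24 h phloem, xylem and green tissue in BL+Kyn lay above mock. The root cap sum overlapped mock at 24 h and 48 h. Of 8 meristem markers 3 were called lower in BL+Kyn (2.47% of all genes were) and none in Kyn (1.03%). PLT2, a regulator of the root meristem, had -1.70 in BL+Kyn, which held in every alternative. The meristem sum was 837 to 1237 in BL+Kyn libraries and 1213 to 1672 in Kyn libraries. It was 1244 to 1573 in BL and 1371 to 1693 in mock libraries. The sums were not tested, and the part of these tissues in the members' lower level in BL+Kyn was not tested.

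**Figure D5:**
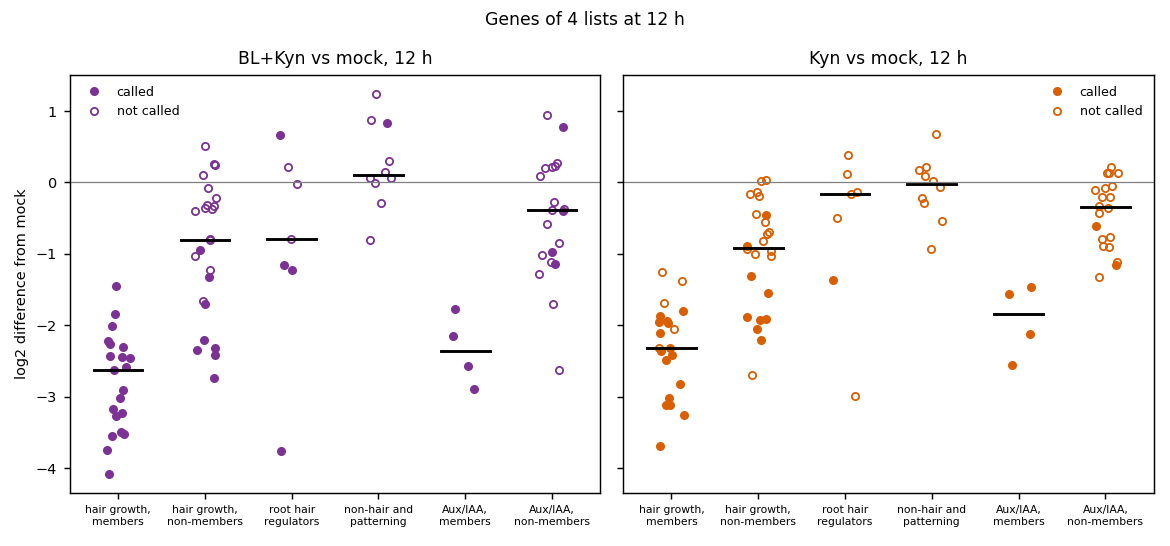
Log2 change at 12 h of the tested genes of 4 lists in BL+Kyn (left) and Kyn (right) against mock, split into members and other genes; each point is a gene, filled where called, and bars are medians. Members of the root hair growth and wall list lie lowest, its other genes have medians of -0.80 and -0.91, the regulators -0.80 and -0.17, and the non-hair markers 0.11 and -0.02.

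A neighbouring set was read beside the members, and why the sets differed was not tested. The same Kyn and BL limits with a BL+Kyn effect above -1.0 gave 39 genes. At 12 h 6 of them were called lower in BL+Kyn (15.4%, median -0.79) and 4 in Kyn (10.3%, median -0.77). Of all genes 2.47 and 1.03% were. Of 37 promoters in that set 1 held an RHE match (2.70%) and 0 held GCACGT. A further 97 genes lowered by Kyn had a BL effect beyond 0.4 in size, 56 of them at or below -0.4.

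Some members lay close to a limit, and neighbours of similar values were left out. AT1G73580 and AT5G43230 had Kyn effects of -1.0001 and -1.01, and AT4G38950 and AT3G45080, both outside, had -0.99. ST4B and IAA11 had BL+Kyn effects of -1.02 and -1.07, and CBL6 and NHX4, outside, had -0.99 and -0.93. MOT1 and GRF11 had BL effects of 0.39 in size and EXPA18 and ROPGEF12, outside, of 0.40 and 0.41. AT5G23160 and RHS6 had means of 20.1 and 21.8 normalized counts and RABH1d, outside, had 19.8.

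In the authors' deposited table of each treatment against mock the members can be read by the authors' own calls. By the authors' adjusted p under 0.05, 110, 115 and 113 members were lower in BL+Kyn at 12, 24 and 48 h (2.96, 8.51 and 9.33% of all genes with an adjusted p). In Kyn 98, 88 and 90 were lower (1.37, 0.951 and 1.25%). In BL none was called lower at any time (0.237, 0.369 and 0.312% of genes were called lower), and none was called higher. For BL 126, 111 and 126 members had an adjusted p at 12, 24 and 48 h. The 24 h and 48 h values repeat the libraries that the rule used and support nothing further.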

How the data were processed

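Roots were profiled by CEL-Seq2 in 24 libraries. Per the submitters' processing notes the tools were DESeq2 1.18.1, HTSeq 0.6.1, TopHat2 2.1.0, Trim Galore, FastQC 0.11.5 and cutadapt 1.10, and the build was TAIR10. Whether molecular identifiers or strand were used in counting is not given in the sources used here. The table deposited by the authors holds counts divided by size factors (a normalized signal), log2 fold changes and adjusted p-values. A further 18 per-sample columns were not used. Every nonzero value was a whole multiple of 1 read (tolerance 0.1 read, 100% of values), which gave the depth of 6.32 to 31.37 in units of 1e6 reads.

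The members, lists and roles were chosen with earlier results of these data known. Roles were assigned by hand from reference descriptions, and members described outside the naming rule (largest change, highest level, smallest p, list membership) were picked after their values were seen. The main test was limma 3.58.1 (R 4.3.3), with trend, on log2(normalized count + 1) of 18948 genes with a mean of at least 5, over all 24 libraries and 12 group means, with Benjamini-Hochberg adjustment and a limit of 0.05. Fold changes of low genes are understated on that scale. edgeR 4.0.16 and DESeq2 1.42.0 on the recovered counts, other pseudocounts, filters and scalings, and leaving out libraries were alternatives. The precision is that of 2 libraries per group.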

Additional observations from a re-analysis of the deposited data

How the results depend on the processing

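No called member reversed direction in any alternative. The members' median in BL against mock, where none was called, was 0.08 in the main run. It was -0.16 without BL 12 h replicate 1 and 0.34 without BL 12 h replicate 2. In the other comparisons the members' median kept its sign. Leaving out each 12 h library in turn gave 74 to 103 members lower in BL+Kyn against mock, 51 to 78 in Kyn against mock, 78 to 102 in BL+Kyn against BL, 0 to 2 in BL+Kyn against Kyn and 0 to 2 in the interaction. In BL+Kyn against Kyn, where 1 was called, DESeq2 called 2, the 12 h libraries alone gave 3, and 0 were called without Kyn 12 h replicate 2 and BL 12 h replicate 2. For BL+Kyn against Kyn DESeq2 gave no adjusted p to 65 of the members, which could not be called there. In the interaction, where 0 were called, DESeq2 called 2. The cause was not tested. edgeR called 106 lower in BL+Kyn and 93 in Kyn, and DESeq2 110 and 99. The labels do not say that replicate numbers pair libraries, so no pairing was assumed: the correlation of deviations had a median of 0.03 over 66 pairs of groups (lowest -0.12, highest 0.53, 9 above 0.1), though 18 of 24 libraries correlated best with their own number, a hint from the data and not from the design. With the replicate block 106 members were lower in BL+Kyn, 79 in Kyn (78 shared with the fit without it), 105 in BL+Kyn against BL, 1 in BL+Kyn against Kyn and 0 in the interaction. Other limits of the rule gave 86 to 179 members, and leaving out each 24 h or 48 h library, chosen after seeing the data, gave 99 to 138. Of the results for single members 12256 kept their side of the limit, 395 lost a call, 136 gained one and 0 reversed. A further 65 had no adjusted p. Depth limits members with few reads, such as CYP94D1, whose lower bound on the fold covers counting error only.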
